A study of Botryllus schlosseri with 42 samples.

Results

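Stage C2, which follows C1 and precedes D, is the sixth of the 7 stages into which the weekly asexual cycle of the colonial ascidian Botryllus schlosseri was divided, and the comparison described here sets fertile against infertile whole colonies at that stage alone. Its members are all 50106 assembled transcripts (contigs) of the C2 table, read in 6 of the 42 RNA-seq libraries of the series, 3 from fertile colonies (spelled Hermaprhodite in the labels) and 3 from colonies labelled Infertile. In each group 2 libraries came from a named genotype (Fert801 and Fert841, Infert001 and Infert802) and 1 from a pool of several genotypes (MixFert, MixInfert). According to the methods, genotype SB841 was both a fertile library of its own and a component of the infertile pool. The methods also list SB802a in the fertile pool and SB802d as an infertile library, without saying how the 2 are related. The groups otherwise hold different genotypes or colonies, so genotype and fertility cannot be told apart. The colonies carried no experimental treatment or transgene. Nothing in the labels says whether the 3 libraries of a group were grown separately, so a p-value here measures the spread between these 3 samples.

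A Botryllus colony is a clone of zooids that share a blood supply and pass through each stage of budding together. The fertile colonies of this comparison were labelled as hermaphrodite, carrying both eggs and testes. Each egg is filled with yolk protein taken up through receptors of the low-density lipoprotein receptor family, and it is wrapped in follicle cells and a coat that contains zona pellucida domain proteins, while the testis lobes run through meiosis and the rebuilding of round cells into tailed sperm. Stage C2 falls late in this cycle, when the eggs in the primary buds are near the end of their growth and just before the old zooids are resorbed at stage D. Because whole colonies were sequenced, more cells of a type and more RNA per cell cannot be told apart in any value below.

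The deposited tables hold a group mean for each contig, and the value of each library was recovered from the fact that each mean is a sum of whole read pairs weighted by 3 library factors. All values below are normalized counts, that is, reads (2 per read pair) divided by the library's size factor. The libraries of a group are numbered 1 to 3 by decreasing size factor, with no genotype assigned to them. Values were recovered in all 6 libraries for 50015 contigs, which held between 8737886 and 11447196 read pairs per library, and 1 read pair was worth between 1.72 and 2.79 normalized counts. The other 91 contigs, all abundant, were not resolved, since a group mean had several solutions or was too high for recovery to be attempted. In the fertile group the contigs not resolved held 36.4% of the summed means, and in the infertile group 38.8%. The test was limma on log2(normalized count + 1) for the 38578 contigs whose mean reached 10 normalized counts, with Benjamini-Hochberg adjustment over all of them. A log2 difference is fertile minus infertile on that scale, with its standard error (SE, n = 3 libraries per group), and it understates the change of low contigs. Contigs named for the same homolog may be parts or near copies of 1 gene, between which reads could have been split.

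The infertile libraries differed among themselves, and 1 of them correlated more highly with each fertile library than with either other infertile library. Infertile library 1 had its highest correlation of log2 values with fertile library 3 (r = 0.876, across contigs), and a lower one with each of the other infertile libraries (0.781 with both). Infertile library 2 was not clearly closer to either group. Its r was between 0.804 and 0.829 with the fertile libraries, 0.829 with infertile library 3 and 0.781 with infertile library 1. Infertile library 3 was the least like the fertile libraries, with r between 0.763 and 0.782. In infertile library 1, 562 contigs lay at least 8-fold above both other infertile libraries, and at 382 of these it also exceeded all 3 fertile libraries. The corresponding counts were 576 in infertile library 2 and 198 in infertile library 3, and between 295 and 353 in the fertile libraries. Infertile library 1 carried the highest level of all 6 libraries for 5 of 5 contigs named for testis-specific serine/threonine kinases and for 11 of 42 named for sperm tail and axoneme proteins, against 7020 of 38578 contigs overall. For this reason results are given with and without it. It was singled out from these same values, and leaving out an infertile library that resembles fertile ones favours separation. Calls made without it are therefore descriptive and no independent evidence of a difference. Why this library carried these transcripts was not tested.

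**Figure D1:**
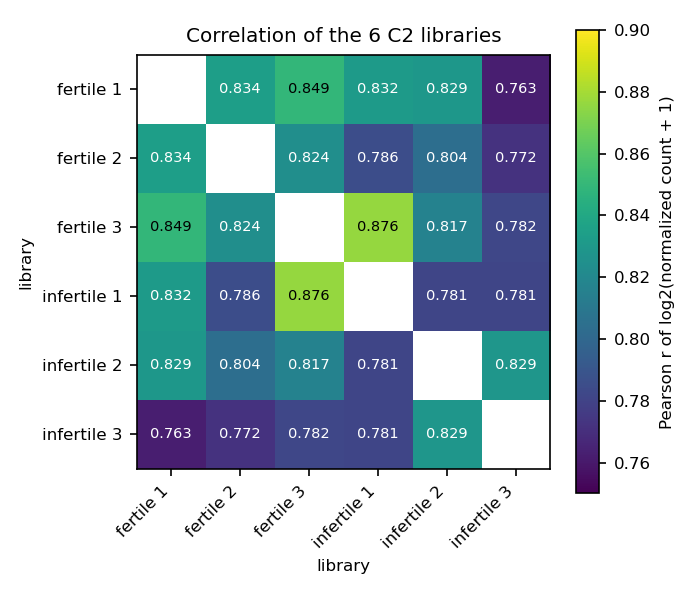
Pairwise Pearson correlation, across contigs, of log2(normalized count + 1) between the 6 libraries of stage C2, with each cell showing r. Infertile library 1 reached 0.876 with fertile library 3 and 0.781 with each of the other infertile libraries.

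The comparison asked which transcripts differ with fertility at C2. Some transcripts named for yolk protein, a lipoprotein receptor, linker histone H1.0 and meiotic chromosome proteins had every fertile library above every infertile one. So did some named for zona pellucida domain proteins, tetraspanins and ammonium transporters. Other contigs named for lipoprotein receptors, tetraspanins and ammonium transporters were separated the other way. The ratios of group means of the contigs named below reached 315. No single contig passed the test on 3 against 3 libraries, however. limma called 0 of 38578 contigs at a 10% false discovery rate (0% higher and 0% lower in fertile colonies), with a lowest adjusted p of 0.155, while 2580 contigs (6.69%) had an unadjusted p under 0.05, 1646 of them higher and 934 lower in fertile colonies. On recovered read pairs, an exact test with a negative binomial model (negative binomial test below) called 53 contigs at the same rate, 46 higher (0.119%) and 7 lower (0.0181%), and the C2 contrast of a limma fit on all 42 libraries called 61. Without infertile library 1, limma called 231 contigs, 166 higher (0.43%) and 65 lower (0.168%), and the negative binomial test called 405. Leaving out any other single library gave between 0 and 7 calls in limma. The libraries of the groups did not overlap for 2781 contigs higher in fertile colonies (7.21%) and for 2466 lower (6.39%), and without infertile library 1 these shares were 15.7% and 15.4%. Scaling by total read pairs, which moved the median of all contigs by 0.19 on the log2 scale, split the same comparison into 4101 higher and 1417 lower. That total was taken over the resolved contigs alone. Each count over a gene list below stands beside these shares of all contigs. The lists were built from homolog names in sheets of contigs with small p-values in this series, so a list's direction is no independent evidence. None of the members of any list was called by limma with all 6 libraries, so they are described by where their libraries lay.

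**Figure D2:**
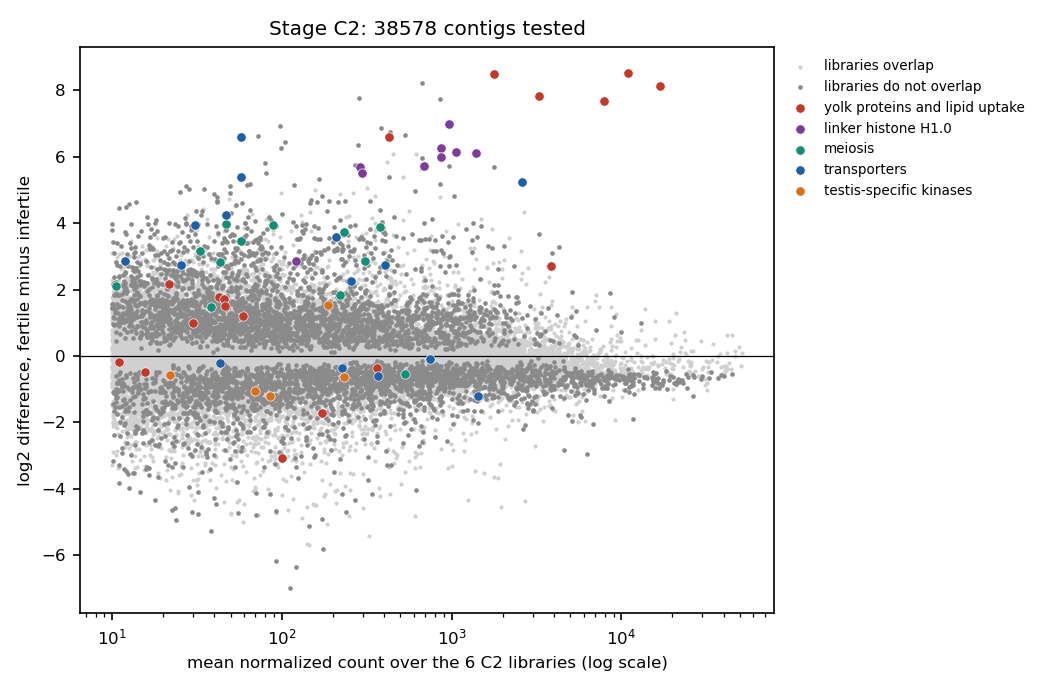
Log2 difference (fertile minus infertile, limma on log2(normalized count + 1)) against the mean normalized count (log axis) for the 38578 contigs tested at C2, with darker points where the groups did not overlap and colours for 5 gene lists. The contigs of the Ciona yolk protein homolog lie at the upper right, at log2 differences from 7.67 to 8.53, and linker histone H1.0 contigs lie above 5 with 1 exception.

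Yolk protein transcripts combined high levels with a wide separation of the groups. The contig that the study named Vitellogenin-1 (CAP3_round1_contig_5534), a homolog of the precursor of egg yolk protein, read 39678, 22005 and 39326 in fertile libraries 1 to 3 against 678, 239 and 8.38 in infertile libraries 1 to 3. All 3 fertile libraries lay far above the infertile ones, and the ratio of means was 109. The infertile libraries themselves spanned a wide range, so the log2 difference of 8.14 ± 1.53 had an adjusted p of 0.689 in limma, and of 0.122 without infertile library 1, while the negative binomial exact test gave an adjusted p of 5.1e-13. Contigs matching the same uncharacterized Ciona intestinalis protein were likewise separated. CAP3_round1_contig_7081 read 25164, 16448 and 23373 against 399, 124 and 2.79, and Bot_rep_c47465 read 16605, 12528 and 18050.4 against 386, 92.5 and 11.2. In each of these contigs infertile library 1 was the highest of the infertile libraries and infertile library 3 the lowest. The lower-level contigs Bot_rep_c50316 (log2 difference 7.83 ± 1.29) and Bot_rep_c52197 (8.48 ± 1.53) separated in the same way, with adjusted p of 0.075 and 0.063 without infertile library 1.

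A receptor for such proteins separated the groups more evenly. The contig the study called ldlr (Bot_rep_c45532), a homolog of a lipoprotein receptor of the family that takes up yolk precursors, read 424, 1031 and 1084 in the fertile libraries against 10.4, 11.1 and 2.79 in the infertile ones. Even the lowest fertile library was well above the highest infertile one, and infertile library 1 did not stand out. The log2 difference was 6.60 ± 0.63, a 105-fold ratio of means, with an adjusted p of 0.155 in limma, 0.069 without infertile library 1 and 6.9e-08 in the negative binomial test. Its groups were separated in this direction at all 7 stages. Other receptors of the family lay the other way: a sortilin-related receptor (Bot_c6426) read 5.17, 12.5 and 83.4 against 190.2, 106 and 201, and a low-density lipoprotein receptor homolog (Bot_rep_c49003) read 81, 49.8 and 76.9 against 129.7, 533 and 159. Both were lower in every fertile library than in any infertile one. A further receptor-related contig, Bot_c2594, read 3793, 11038 and 4069.6 against 3204, 348 and 550.4, so its groups were apart by a narrow margin that infertile library 1 set.

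Of the 23 contigs in the list of yolk proteins and lipid uptake, 18 were tested, 2 were not resolved and 3 had means under 10. Of the 18, 7 lay higher in all fertile libraries and 2 lower, with a median log2 difference of 1.75 (1.36 without infertile library 1), where the median of all contigs was 0.01. The negative binomial test called 6 higher. The members summed to 96306, 73536 and 97237 normalized counts in the fertile libraries and 5770, 2171 and 1442 in the infertile ones, and the contigs of the Ciona yolk protein homolog made up most of the fertile sums. The groups did not overlap in these sums.

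**Figure D3:**
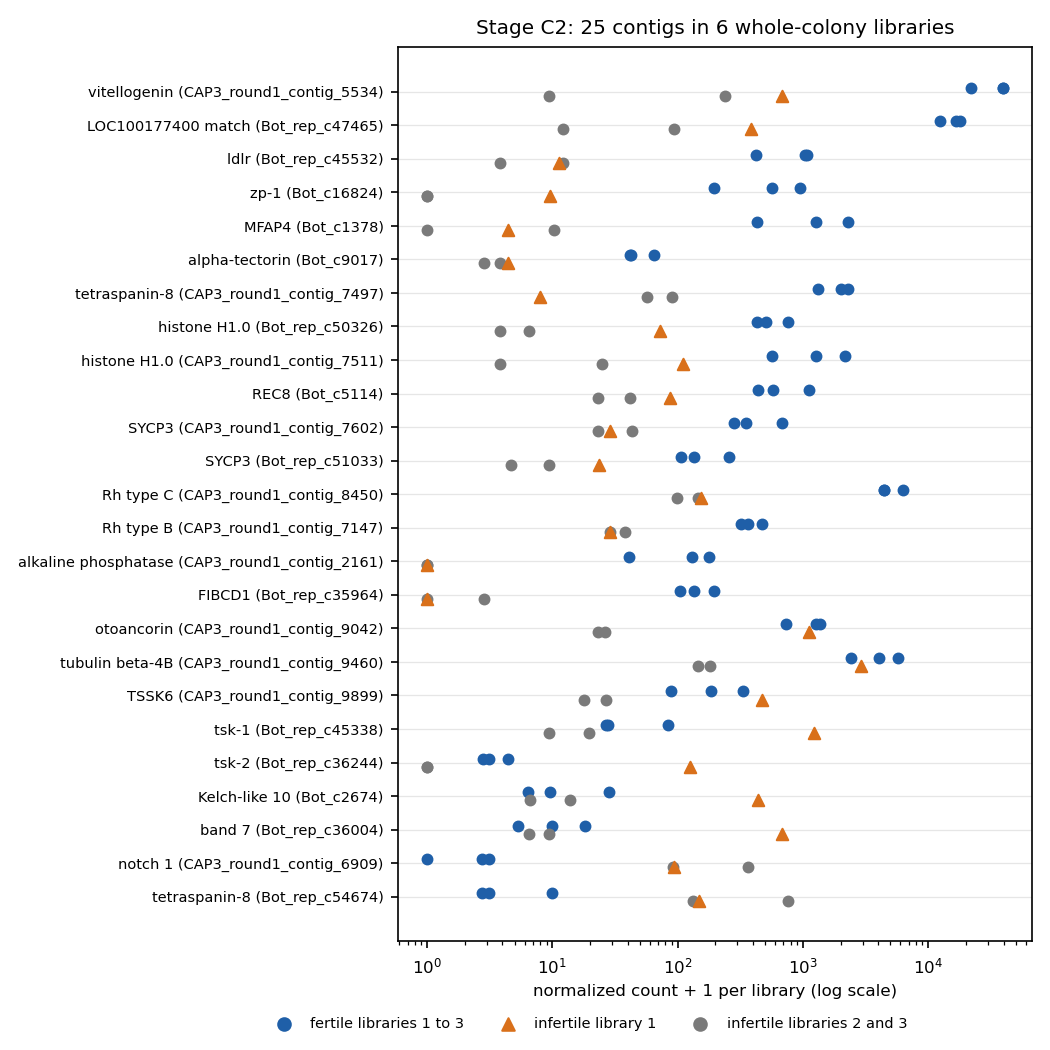
Normalized counts of the 6 libraries of stage C2, on a log axis of normalized count + 1, for contigs named in the text; each point is 1 library and infertile library 1 has its own marker. For vitellogenin, ldlr, zp-1 and Rh type C all fertile points lie above all infertile points, while for tsk-1 infertile library 1 at 1235 lies above all the others.

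Contigs for secreted and egg coat proteins held some of the largest ratios of means. A microfibril-associated glycoprotein 4 homolog (Bot_c1378), a secreted protein with a fibrinogen-like domain, read 429, 1273 and 2302 in the fertile libraries against 3.46, 9.25 and 0 in the infertile ones. Every infertile library was at 0 to 5 read pairs, and the ratio of means was 315. Its log2 difference was 8.24 ± 1.01, with an adjusted p of 0.319 (0.121 without infertile library 1, and 0.0042 in the negative binomial test). The contig named zp-1 (Bot_c16824), whose homologs carry the zona pellucida domain found in egg coats, read 193, 563 and 951 against 8.65, 0 and 0. Only infertile library 1 had any read pair for it. It was called without that library (log2 difference 8.88, adjusted p = 0.043 in limma) but not with it (7.79 ± 1.06, adjusted p = 0.414), and the ratio of means was 197. An alpha-tectorin homolog (Bot_c9017), a further protein with that domain, read 41.4, 40.9 and 64.1 against 3.46, 1.85 and 2.79, with little spread inside either group and an adjusted p of 0.169.

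Tetraspanins, membrane proteins of which some act in sperm and egg fusion in mammals, did not share a direction. CAP3_round1_contig_7497 (tetraspanin-8 homolog) read 1999.8, 2307 and 1315 in the fertile libraries against 6.92, 88.8 and 55.9, and here infertile library 1 was the lowest of all. The difference was 5.73 ± 0.93 on the log2 scale, with an adjusted p of 0.534 in limma and 9.1e-09 in the negative binomial test. Bot_rep_c54674, another tetraspanin-8 homolog, lay in the opposite direction at 1.72, 8.9 and 2.14 against 147, 761 and 131, with no overlap and a log2 difference of -5.81 ± 0.85 (adjusted p = 0.450). The tetraspanin-8 contig that the study followed (Bot_c16543) read 31, 24.9 and 10.7 against 22.5, 5.55 and 14, and its groups overlapped. Across the 13 tested contigs with zona pellucida domain or tetraspanin names, 4 lay higher in all fertile libraries and 3 lower, with a median of -0.47.

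Linker histone H1.0 was the list with the highest median. Linker histones bind the DNA between nucleosomes and compact it, and germ cells of many animals carry variants of their own. All 9 contigs with this homolog had a positive difference, 8 were higher in every fertile library, and the median log2 difference was 6.0 (7.05 without infertile library 1). The negative binomial test called 6 of the 9. Bot_rep_c34825 read 1789, 3140.5 and 759 against 95.1, 20.4 and 0, and CAP3_round1_contig_7511 read 1272, 2163 and 569 against 109, 24.1 and 2.79. In both, infertile library 1 was the highest infertile library and still several-fold below the lowest fertile one. Bot_rep_c50326 read 510.3, 755 and 432 against 70.9, 5.55 and 2.79, and limma called it without infertile library 1 (adjusted p = 0.030) but not with all 6 (0.735). The ninth contig, Bot_rep_c52805, read 165, 162 and 53.4 against 346, 1.85 and 2.79, so infertile library 1 was above all fertile libraries there.

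Core histones did not show that pattern as a group. An H2B type 3-B homolog (CAP3_round1_contig_1301) read 84.5, 123 and 32.1 against 1.73, 7.4 and 0, and an H2A.Z homolog (Bot_rep_c35712) read 386, 1082 and 224 against 156, 38.9 and 11.2. Both were higher in every fertile library. The most abundant H2A.Z contig (CAP3_round1_contig_5339) was lower in every fertile library, at 4424, 2989 and 3012 against 5079.9, 5531 and 14842. H2B type 1-L (CAP3_round1_contig_5576) read 32.8, 30.3 and 15 against 595, 7.4 and 2.79, with infertile library 1 far above the other 5 libraries. The median of the 5 core histone contigs was -0.06, it was 0.11 under scaling by total read pairs, and it was 2.18 without infertile library 1.

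Meiotic genes lay higher in fertile colonies almost throughout. Of 12 contigs in this list, 10 were higher in every fertile library and 1 lower, with a median log2 difference of 3.01 (3.53 without infertile library 1), and the negative binomial test called 3. A synaptonemal complex protein 3 homolog (CAP3_round1_contig_7602), part of the scaffold that pairs chromosomes, read 352, 680.1 and 280.0 in the fertile libraries against 27.7, 42.6 and 22.4. Infertile library 1 was not the highest infertile library here, and the difference was 3.73 ± 0.47 with an adjusted p of 0.372 in limma and 0.026 in the negative binomial test. A second contig for the same protein (Bot_rep_c51033) read 134, 256 and 105 against 22.5, 3.7 and 8.38. The meiotic cohesin REC8 homolog (Bot_c5114) read 579, 1113 and 438 against 86.5, 40.7 and 22.4, and it was called without infertile library 1 (log2 difference 4.40, adjusted p = 0.091) but not with it (3.90 ± 0.62, 0.513). The groups were apart by several-fold for each of these 3 contigs.

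Other proteins of meiotic recombination and of the chromosome axis had smaller differences of the same sign. A SPO11 homolog (Bot_c23297), the enzyme that cuts DNA to start recombination, read 93.1, 134 and 79.1 against 29.4, 5.55 and 2.79. The strand exchange protein DMC1 (Bot_c205) read 314, 461 and 269 against 112, 92.5 and 78.2, and a HORMA domain protein (CAP3_round1_contig_456), a component of the meiotic chromosome axis, read 410.3, 867 and 348 against 118, 79.6 and 33.5. All 3 were higher in every fertile library, and of them SPO11 was called without infertile library 1 (adjusted p = 0.066 in limma). Cyclin-A1 (CAP3_round1_contig_4222), a meiotic cyclin of the male germ line in mammals, read 60.3, 46.3 and 32.1 against 77.8, 7.4 and 5.59 and overlapped through infertile library 1. Cyclin-B3 (CAP3_round1_contig_7272) was the exception in direction, at 469, 497 and 348 against 595, 537 and 766, with a log2 difference of -0.53 ± 0.34.

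Germline RNA regulators, which guard and translate germ cell transcripts, were present in both groups. Of 10 tested contigs 9 had a positive difference and 5 were higher in every fertile library, with a median of 2.35 (3.10 without infertile library 1). The vasa homolog (CAP3_round1_contig_8235), an RNA helicase of germ cells, read 872, 2275 and 536 against 719, 209 and 134. The piwi homolog (Bot_c34775), which works with small RNAs against transposons, read 3088, 7417 and 2358 against 2566, 561 and 405. In both, fertile library 2 was the highest, and infertile library 1 lay among the fertile libraries, so the groups overlapped. A boule-like contig (CAP3_round1_contig_4110), an RNA-binding protein of male meiosis in animals, read 534, 1147 and 406 against 185, 37 and 8.38, and a homolog of the germ cell repressor nanos (Bot_c494) read 233, 313 and 162 against 121, 29.6 and 8.38. A tudor domain contig (Bot_rep_c49013), of a family that binds Piwi proteins, read 124, 493 and 229 against 72.6, 7.4 and 5.59. These last 3 were separated, and infertile library 1 was the highest infertile library for each. A second piwi contig (454_debris_c36) read 233, 468 and 135 against 195, 79.6 and 1201, with infertile library 3 the highest of the 6.

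Among transport proteins an ammonium transporter had the smallest p-value of all 38578 contigs. The Rh type C homolog (CAP3_round1_contig_8450), a membrane channel for ammonia, read 4427, 4458 and 6249.8 in the fertile libraries against 154, 144 and 97.8 in the infertile ones. The libraries of each group lay close together, and the ratio of means was 38.2. The log2 difference was 5.25 ± 0.36, with an adjusted p of 0.155 in limma, of 0.033 without infertile library 1, and of 7.9e-09 in the negative binomial test. An Rh type B homolog (CAP3_round1_contig_7147) read 317, 365 and 475 against 27.7, 37 and 27.9, again with little spread inside the groups (3.59 ± 0.34, adjusted p = 0.155). An Rh type A homolog (Bot_rep_c54944) read 324, 438 and 502 against 76.1, 75.9 and 109. A more abundant Rh type B contig (Bot_rep_c35494) lay in the opposite direction without overlap, at 765, 611 and 1297 against 2004, 1781 and 2073.

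Alkaline phosphatases and an efflux pump belonged to the same list. An intestinal-type alkaline phosphatase homolog (CAP3_round1_contig_2161), an enzyme that removes phosphate groups at cell surfaces, read 39.7, 176 and 128 in the fertile libraries and had no read pair in any infertile library. Against a floor of 3 read pairs over the infertile group the fertile mean was at least 55.6-fold higher, and the contig had an adjusted p of 0.155 in limma and 0.070 without infertile library 1. A further alkaline phosphatase contig (Bot_c11702) read 31, 157 and 154 against 0, 1.85 and 2.79, a ratio of 81.6 with a counting interval from 22.3 to 679. Interval and floor cover counting error alone. The multidrug resistance protein homolog Bot_c2465, an efflux pump, read 676, 935 and 445 against 268, 62.9 and 53.1 and was called without infertile library 1 (adjusted p = 0.091) and not with it. Of the 15 tested transport contigs, 9 were higher in every fertile library and 1 lower, with a median log2 difference of 2.76 (3.30 without infertile library 1).

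**Figure D4:**
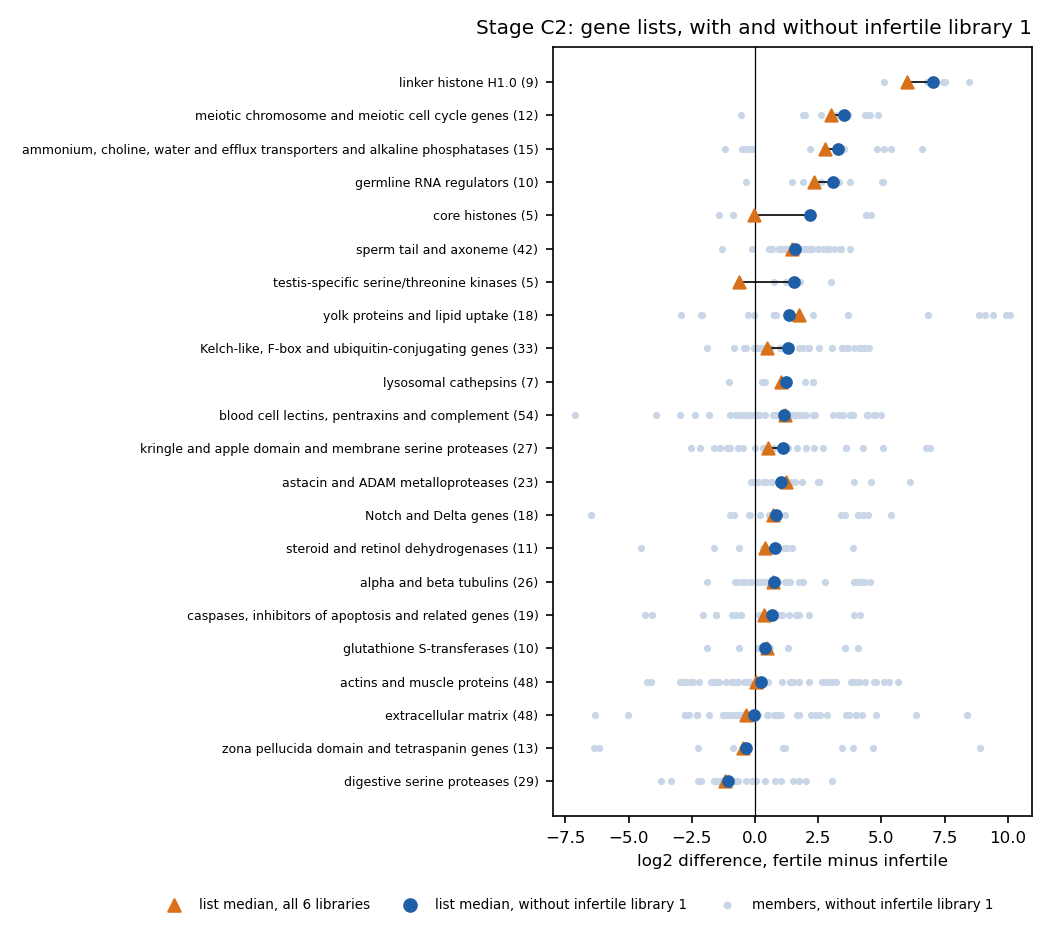
Median log2 difference (fertile minus infertile) of the tested contigs of each gene list at C2, with all 6 libraries (triangles) and without infertile library 1 (circles), and small points for the members without it. Linker histone H1.0 has the highest median (6.0 and 7.05), and the testis-specific kinases move from -0.62 to 1.55 when infertile library 1 is left out.

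Secreted proteases and matrix proteins were divided between the directions, and some single contigs were close to absent from the infertile libraries of C2. A plasminogen homolog (Bot_c16998), a serine protease precursor, read 209, 1134 and 943 against 3.46, 3.7 and 5.59, a 179-fold ratio of means (log2 difference 6.88 ± 0.70, adjusted p = 0.176) that was separated in the same direction at all 7 stages. A plasma kallikrein homolog (CAP3_round1_contig_2527), of the same protease class, read 353, 208 and 23.5 and had 0 read pairs in the infertile libraries, at least 102-fold higher against the floor. A fibrinogen C domain-containing homolog (Bot_rep_c35964) read 193, 103 and 135 against 0, 1.85 and 0, and the ratio of 214 rested on 1 infertile read pair, with a counting interval from 38.0 to 8478. All 3 contigs had infertile levels of a few read pairs at most. Within the kringle, apple domain and membrane serine proteases 7 of 27 contigs were higher in every fertile library and 1 lower, with a median of 0.51.

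Metalloproteases of the astacin family, to which the procollagen-cleaving tolloids belong, had 5 of 23 contigs higher in every fertile library and 0 lower, with a median of 1.24. The contig the study named tolloid-like 1 (Bot_c3513, with a meprin A subunit beta homolog in the sheets) read 67.2, 123 and 38.5 against 12.1, 0 and 0. It was called without infertile library 1, the sole infertile library with reads (adjusted p = 0.053 in limma), and had an adjusted p of 0.736 with it. A meprin A subunit alpha homolog (Bot_rep_c40218) read 15.5, 40.9 and 19.2 with 0 read pairs in the infertile libraries, at least 12.5-fold higher. The groups of both contigs were fully apart.

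Among 48 tested matrix contigs 10 were higher in every fertile library and 5 lower, and their median was -0.36. The tenascin homolog (CAP3_round1_contig_973), an adhesion-modulating matrix protein, read 165, 335 and 152 against 32.9, 7.4 and 5.59. Fibrillin-2 (Bot_rep_c35228), the backbone of elastic microfibrils, was far more abundant and lay the other way at 7068, 6252 and 8079 against 14977, 12399.8 and 17924. A prolyl 4-hydroxylase homolog (CCTT15389.b1), an enzyme of collagen maturation, read 0, 0 and 2.14 against 10.4, 50 and 44.7 and was called lower without infertile library 1 (adjusted p = 0.091 in limma). For each of these 3 contigs the groups did not overlap.

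For all 5 contigs named for testis-specific serine/threonine kinases, infertile library 1 held the highest level of the 6 libraries. The contig tsk-1 (Bot_rep_c45338), a homolog of a kinase made in the testis of mammals, read 82.7, 26.7 and 25.6 in the fertile libraries against 1235, 18.5 and 8.38. Infertile library 1 was more than 10 times any fertile library, and the other infertile libraries were below all fertile ones. Its log2 difference was -0.62 ± 1.82 with infertile library 1 and 1.55 without it, and neither passed the test (adjusted p of 0.957 and 0.497). For tsk-2 (Bot_rep_c36244) the normalized counts were 3.45, 1.78 and 2.14 against 124, 0 and 0. Its fertile values amounted to a few read pairs at most. The TSSK6 homolog (CAP3_round1_contig_9899) read 184, 333 and 87.6 against 469, 25.9 and 16.8, with infertile library 1 again the highest and the groups overlapping. Summed over the 5 kinase contigs, the levels were 319, 377 and 124 against 2663, 51.8 and 36.3, and 0 of the 5 separated the groups with all 6 libraries.

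The same library led for other contigs that the study listed as fertility genes. Kelch-like protein 10 (Bot_c2674), a ubiquitin ligase adaptor of spermatids in mice, read 27.6, 5.34 and 8.55 against 436, 13 and 5.59. The band 7 membrane protein homolog (Bot_rep_c36004) read 17.2, 8.9 and 4.27 against 685, 5.55 and 8.38, and the fibrous sheath-interacting protein 2 homolog (CAP3_round1_contig_4558), a component of the sperm tail sheath, read 160.3, 141 and 105 against 811, 25.9 and 27.9. In all 3, infertile library 1 exceeded every fertile library, while infertile libraries 2 and 3 lay within or below the range of the fertile ones. Of the 34 contigs that the study tabled or followed, infertile library 1 was the highest of 6 libraries for 16. By contrast, 10 were higher in every fertile library and 1 was lower, and limma called 8 without infertile library 1. Their median log2 difference was 0.97, or 2.44 without infertile library 1. The number with a negative difference fell from 13 to 3.

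Otoancorin and a beta tubulin were intermediate. The otoancorin homolog (CAP3_round1_contig_9042), named for a surface protein of the inner ear, read 1367, 1271 and 727 against 1108, 22.2 and 25.1. Infertile library 1 lay among the fertile libraries while the other infertile libraries were far lower, and limma called the contig without infertile library 1 (log2 difference 5.46, adjusted p = 0.036) and not with it (3.63 ± 1.51, 0.736). The tubulin contig CAP3_round1_contig_9460 read 4018, 5770.0 and 2413 against 2894, 144 and 179, again with infertile library 1 among the fertile libraries, and had an adjusted p of 0.070 without infertile library 1. Of the 42 tested sperm tail and axoneme contigs 15 were higher in every fertile library and 0 lower, 29 without infertile library 1, and the median was 1.45 (1.57 without it). The sums of this list were 4318, 4501 and 5155 in the fertile libraries against 6662, 2464 and 1562, so infertile library 1 was the highest of all. A spermatogenesis-associated protein homolog (Bot_rep_c54627) did not depend on that library, at 215, 253 and 280.0 against 34.6, 85.1 and 36.3.

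The contigs with the smallest p among separated ones were examined by the rule for named genes. The 20 higher in fertile colonies had adjusted p between 0.155 and 0.414 and log2 differences between 2.85 and 8.24, 5 of them had 0 read pairs in all infertile libraries, and 13 had a homolog. limma called 16 of the 20 without infertile library 1. Besides those already named they included a homolog of a calcyphosin-like calcium-binding protein (Bot_c9453), at 50, 44.5 and 53.4 against 3.46, 0 and 0, and contigs with no homolog such as Bot_rep_c48084, at 1274, 588 and 1278 against 19, 11.1 and 2.79, and Bot_c22849, at 221, 153 and 250.1 against 3.46, 1.85 and 0. For these 3 contigs infertile library 1 was the highest infertile library and each fertile library lay above it. Outside the 20, the glutathione S-transferase homolog Bot_rep_c48847, a detoxifying enzyme, read 365, 894 and 274 against 34.6, 33.3 and 19.6, a 17.5-fold ratio of means. All 53 contigs called by the negative binomial test separated the groups, 36 of them had a homolog, and limma called 31 of them without infertile library 1.

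Contigs lower in fertile colonies were examined in the same way. The 10 with the smallest p had log2 differences between -6.98 and -2.84 and adjusted p between 0.179 and 0.616, and 4 had a homolog. The contig with the largest of these differences, Bot_c31953, had no homolog and read 3.45, 0 and 0 in the fertile libraries against 301, 118 and 246. Only fertile library 1 had reads of it, and the ratio of 178 had a counting interval from 48.8 to 1473. A Notch homolog (CAP3_round1_contig_6909), named for a receptor of cell-to-cell signalling, read 1.72, 0 and 2.14 against 93.4, 90.7 and 366, a log2 difference of -6.17 ± 0.73 with an adjusted p of 0.279 and of 0.091 without infertile library 1. Other members of the Notch and Delta list lay the other way, 8 of 18 being higher in every fertile library. Among these were CAP3_round1_contig_8928 (Notch homolog), at 4318, 11299.6 and 4345 against 2737, 278 and 444, and the Delta-like protein 4 homolog Bot_rep_c56439, a Notch ligand, at 1579, 3541 and 1489.8 against 1112, 81.4 and 131. For both, infertile library 1 was close to the lower fertile libraries.

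Actin and muscle genes held more contigs lower in every fertile library than any other list. Of 48 tested actin and muscle contigs, 16 were lower in every fertile library and 9 higher, and without infertile library 1 limma called 5 lower and 5 higher. The cytoplasmic actin homolog Bot_rep_c47438 read 705, 892 and 1135 against 1345, 10669 and 23059, and CAP3_round1_contig_58 read 1864, 2163 and 2443 against 2932, 17127 and 14149. Infertile library 1 was near the fertile libraries and the other infertile libraries were many-fold higher, with adjusted p of 0.088 and 0.089 without it and of 0.736 for both with it. Other actin contigs had the reverse order. Bot_rep_c56546 read 393, 303 and 167 against 72.6, 9.25 and 16.8, and Bot_rep_c44885 read 1534, 2129 and 893 against 446, 83.3 and 101. The list's median was 0.04, since members of near equal number lay on each side.

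Caspases are the proteases of programmed cell death, and zooids are resorbed at the following stage. The caspase-2 homologs Bot_c20287 and Bot_c5773 were lower in every fertile library. Bot_c20287 read 1.72, 0 and 12.8 against 43.2, 64.8 and 47.5, and Bot_c5773 read 3.45, 0 and 0 against 5.19, 29.6 and 36.3. The lowest infertile value of Bot_c5773 lay within a few read pairs of its highest fertile one. An apoptosis-inducing factor 2 homolog (Bot_c13628) was higher, at 86.2, 130.0 and 83.4 against 15.6, 1.85 and 14. At C1 and at D the groups of Bot_c20287 and of Bot_c13628 overlapped. Of 19 tested contigs in the apoptosis list 3 were higher at C2 without overlap and 3 lower, with a median of 0.35, and limma called 0 with or without infertile library 1. The lysosomal cathepsins had no separated contig among 7.

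Contigs named for lectins and for steroid enzymes were separated in a minority of cases. A macrophage mannose receptor homolog (Bot_c5746) read 119, 157 and 149.6 against 29.4, 5.55 and 5.59, and it was called without infertile library 1 (adjusted p = 0.035 in limma). The p-selectin contig that the study followed (Bot_c13044), a homolog of an adhesion receptor, read 94.8, 73 and 57.7 against 38, 7.4 and 5.59. It was likewise called without infertile library 1 (adjusted p = 0.085 in limma). For both, infertile library 1 was the highest infertile library and lay below every fertile one. Of 54 lectin, pentraxin and complement contigs 8 were higher in every fertile library and 1 lower. The lower contig was a second and more abundant p-selectin homolog (CAP3_round1_contig_9998), at 2434, 1852 and 1075 against 2478, 3273 and 23369. The contig hsd17b8 (Bot_c2901), a homolog of an enzyme of estradiol metabolism, read 70.7, 125 and 68.4 against 43.2, 1.85 and 11.2, and 3 of 11 steroid and retinol dehydrogenases were higher without overlap.

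Gut proteases marked differences between libraries that did not follow fertility. The 29 tested digestive serine protease contigs summed to 114964, 824 and 4241 normalized counts in the fertile libraries and 25910, 105879 and 2842 in the infertile ones, and 0 of them separated the groups. A chymotrypsinogen homolog (Bot_rep_c45833) read 22311, 107 and 727 against 3258, 17869.5 and 360.4. Each group held a high library and a library many-fold lower. The part of this in other results was not tested.

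The difference at C2 was then set against those at the stages before and after it. limma, fitted on all 42 libraries, called 0 of 38613 contigs for a fertile minus infertile difference at C2 that departed from C1 and 0 from D (0% in either direction for both), with lowest adjusted p of 0.851 and 1. At an unadjusted p under 0.05 there were 551 contigs (1.43%) against C1 and 710 (1.84%) against D. Both shares were below the 5% expected with no difference, so the p-values of this fit ran high. The 0 calls therefore do not show that the difference at C2 equals that at C1 or D. Of the 20 higher contigs above, 10 were also separated in the same direction at C1, 14 at D and 5 at all 7 stages, and 2 at C2 alone. Over all 2781 contigs higher at C2 these shares were 17.2% at C1, 27.9% at D, 1.65% at all stages and 41.7% at C2 alone. Of the 10 lower contigs 2 were separated in the same direction at C1, 2 at D and 6 at C2 alone. Over all 2466 lower contigs these shares were 24.5% at C1, 36.3% at D and 31.2% at C2 alone. The 46 contigs called higher by the negative binomial test were separated at D in 35 cases and at all stages in 15, and the 7 called lower were separated at no other stage. Colonies of the same genotypes recur across the stages, so these stages are not independent repeats. The fertile libraries of C1 held 11202858, 6139658 and 3720956 read pairs in resolved contigs. Contigs not resolved held 70.7% of the summed fertile means at C1. The part of this depth in the overlap at C1 was not tested.

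Some contigs were separated at C2 and overlapped at the neighbouring stages, where 1 fertile library lay at the infertile level. The Rh type C contig (CAP3_round1_contig_8450) read 5677, 102 and 1356 in the fertile libraries of C1 against 176, 71.1 and 105, and 4519, 133 and 1534 at D against 215, 109 and 270.3. At each of these stages fertile library 2 was at the level of the infertile libraries, whereas the fertile libraries of C2 lay at 4427 and above. Rh type B (CAP3_round1_contig_7147) gave the same order at C1, at 299, 24.2 and 82.3 against 28.3, 18.1 and 49.5. The tetraspanin-8 homolog CAP3_round1_contig_7497 read 1924, 19.4 and 1343 at C1 against 2.69, 173 and 40.9, and 2235, 11.4 and 784 at D against 284, 39 and 6.87. The fibrinogen C domain contig (Bot_rep_c35964) had 0 read pairs in fertile library 2 of C1 and of D. At C1 it read 155, 0 and 659 against 0, 527 and 0, so infertile library 2 was also above fertile library 1 there. The library number does not mark the same colony across stages. None of these stage differences passed the test, with unadjusted p between 0.144 and 0.637.

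The zp-1 contig had a larger difference at C2 than at its neighbours, without passing the adjusted test. This contig (Bot_c16824) read 26.8, 220.1 and 78 at C1 against 6.73, 1.39 and 4.3, and 139, 528 and 304 at D against 12.5, 18.5 and 50.4. Its groups were separated in this direction at all 7 stages. In the limma fit the log2 difference at C2 exceeded that at C1 by 3.70 ± 1.31 (unadjusted p = 0.0083) and that at D by 4.22 ± 1.31 (unadjusted p = 0.0030), with an adjusted p of 1 for both. The alkaline phosphatase contig CAP3_round1_contig_2161 read 2.82, 48.4 and 17.3 at C1 against 1.35, 1.39 and 6.46, and its difference at C2 was larger by 4.49 ± 1.42 (unadjusted p = 0.0035, adjusted p = 1 in limma). For the synaptonemal complex protein 3 contig CAP3_round1_contig_7602 the C1 values were 135, 72.6 and 65 against 74, 19.5 and 19.4. There the groups overlapped, and at D they were apart again at 323, 415 and 312 against 30.4, 131 and 6.87.

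The departure from C1 with the smallest p belonged to a contig with no homolog in the sheets. CAP3_round1_contig_9803 read 491, 550.1 and 1864 against 86.5, 88.8 and 39.1 at C2, and 63.5, 62.9 and 121 against 141, 135 and 142 at C1. Fertile libraries were thus the higher ones at C2 and the lower ones at C1, a difference of differences of 4.37 ± 0.87 (unadjusted p = 2.2e-05, adjusted p = 0.851 in limma). At D the groups overlapped, at 1090.0, 1359 and 1237 against 1663, 2011 and 337. For tsk-1 (Bot_rep_c45338) the sign was the opposite, without passing the adjusted test. It read 741, 535 and 1543 against 719, 11.1 and 8.61 at C1, and 21.9, 20.8 and 27.9 against 14.3, 18.5 and 6.87 at D. Its fertile levels were high at C1 and low from C2 onward, and 1 infertile library of C1 also reached the fertile level. The log2 difference at C2 minus that at C1 was -4.90 ± 2.16 (unadjusted p = 0.030, adjusted p = 1 in limma).

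**Figure D5:**
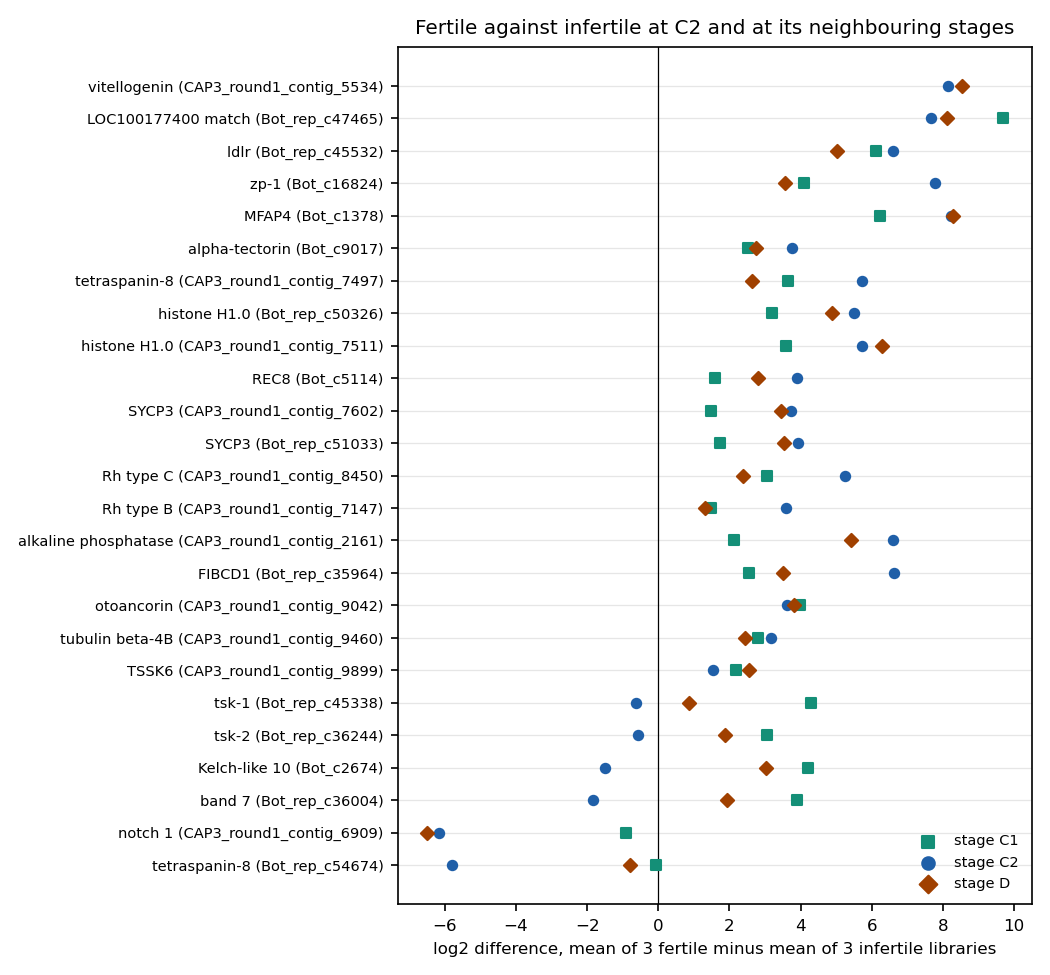
Log2 difference (mean of the fertile minus mean of the infertile libraries, on log2(normalized count + 1)) of 25 contigs at stages C1, C2 and D, with 1 point per stage. Vitellogenin has no C1 point, since its library values were not resolved there. The Rh type C contig stands at 5.25 at C2, 3.06 at C1 and 2.39 at D, while tsk-1 stands at -0.62 at C2 and 4.28 at C1.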

How the data were processed

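Whole colonies were sequenced as paired-end RNA-seq libraries. Read pairs were mapped with Bowtie 0.12.7 to contigs assembled from expressed sequence tags, tallied for each contig and compared within each stage with DESeq 1.10.1, and the submitters' processing notes also name CASAVA 1.8.2, FastQC, SAMtools 0.1.18 and RSEM 1.2.3. The values the authors deposited are a signal, the mean over 3 libraries of counts divided by size factors, with 1 table per stage. The tables also hold the authors' fold changes and p-values for the same comparison, which were not used.

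Each library's read pairs were recovered as the whole numbers whose sum, weighted by the library factors, gives the deposited mean. This gave a single solution for 99.8% of contigs in either C2 group, and for none of the 1000 altered means tried per group. The recovered size factors were 1.16, 1.12 and 0.936 (fertile) and 1.16, 1.08 and 0.716 (infertile). Because the deposited unit is a normalized mean, the test was limma 3.58.1 (R 4.3.3) on log2(normalized count + 1), 2-sided, at a false discovery rate of 10%, after contigs with a mean under 10 were left out. Stages were compared in 1 limma fit on 42 libraries, in which stages scaled separately cancel. The negative binomial exact test used the larger of the contig's and the fitted dispersion. Counting intervals are exact 95% intervals, and the floor is 3 read pairs over a group. Recovery and tests were tested on simulated data.

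Homolog names came from the study's supplementary sheets, which were held in part, list contigs with small p-values in this series and name 4967 of the contigs. Named contigs are the 20 higher and 10 lower with the smallest p among separated ones, those the study tabled or followed, the most abundant, most different and opposite members of each list, and those whose difference departs most from C1 or D. A few others, with contigs called by the negative binomial test, were added after their values were seen. Members and lists were chosen with earlier results of these data known. No genome position or sequence of the contigs was used here.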

Additional observations from a re-analysis of the deposited data

Results flagged for a closer look

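A contig outside the test, CAP3_round1_contig_3261, had one of the widest separations of the C2 table. It matches the same Ciona yolk protein homolog as the vitellogenin contigs, and its fertile libraries could not be resolved because the deposited mean had several solutions. The authors' mean was 53456 normalized counts in fertile and 442 in infertile colonies, a ratio of 121, and the recovered infertile libraries read 705, 524 and 97.8. Infertile library 1 was again the highest of these. Its fertile level exceeded that of every infertile library on the authors' means, with no spread to test. The other yolk list contig not resolved, an apolipoprotein B-100 homolog (CAP3_round1_contig_9203), had authors' means of 71808 and 31895, and its infertile libraries read 19944, 68082 and 7658.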

How the results depend on the processing

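With all 6 libraries limma called 0 contigs at C2, and it also called 0 at a 5% threshold, with a pseudocount of 0.5, without the filter on low means, under scaling by total read pairs or by the upper quartile, with a robust prior variance, with library weights and against a 2-fold difference. It called 14 at a 20% threshold, 6 with a pseudocount of 5, 1 each with a minimum mean of 50, limma-trend and voom weights, and 61 in the fit on 42 libraries, while the negative binomial exact test called 53. Leaving out 1 library gave between 0 and 231 calls, with 231 without infertile library 1, 7 without infertile library 2 and 2 without fertile library 3. The negative binomial test without infertile library 1, chosen after seeing the data, called 405. The departures from C1 and D stayed at 0 contigs in every alternative run. The count of contigs that did not overlap, 5247, was 3796 with a minimum mean of 50, 5859 without the filter, 5518 and 5253 under the other scalings, and between 7115 and 11990 with a library left out, alternatives also chosen after seeing the data, where fewer libraries have to separate. Of 166 named contigs the log2 difference changed sign for 14 without infertile library 1, for at most 4 without any other library, for 2 under scaling by total read pairs and for 1 with a pseudocount of 0.5. The median of core histones turned from -0.06 to 0.01 with a pseudocount of 0.5, and that of testis-specific kinases was negative in each alternative run except without infertile library 1. No paired analysis was possible because the recovered libraries carry no genotype or replicate number that the groups share. Depth limits contigs at a few read pairs, where 1 pair is worth 1.72 to 2.79 normalized counts.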

Other observations

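The totals of the tested contigs did not match between the groups after size-factor scaling. They summed to 18340800, 18943200 and 18665400 normalized counts in the fertile libraries and to 19756600, 20452900 and 24383500 in the infertile ones, without overlap. The 91 contigs not resolved are not in these sums.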
